A study of Homo sapiens with 6 samples.

Results

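GDF15, TP53INP1, SESN1, BAX and SPATA18 are 5 genes that p53 is known to switch on. They were selected on the measured fold changes of these arrays, because GDF15, TP53INP1 and SESN1 were higher and BAX and SPATA18 lower after inhibition of DNA-PKcs, so their own differences are given as a description, without a test. All 5 were measured, each by 1 probeset, among 14812 genes. The RNA came from C4-2 cells, an established human prostate cancer line derived from LNCaP, grown in medium with hormones and measured on 6 Affymetrix Human Gene ST arrays in 3 groups of 2. The control arrays are labelled as treated with DMSO, the solvent. The NU7441 arrays came from cells given 1 µM of NU7441, a small-molecule inhibitor of the DNA-PKcs kinase, for 24 h. The knockdown arrays came from cells transfected for 96 h with an siRNA pool against PRKDC, the gene of DNA-PKcs. The protocol also mentions a control siRNA pool, and the labels do not say whether the control arrays or the NU7441 arrays received it. The treatments thus differ in duration and in delivery as well as in target. PRKDC itself, CDKN1A and MDM2 are not analysed here. The labels call the arrays of a group biological replicates without naming separate cultures, so the errors measure the spread between these samples only.

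p53 is a transcription factor that is held at a low level by MDM2 and released when DNA is damaged or the cell is stressed. Its targets include genes that stop the cell cycle, repair DNA, adjust metabolism, remove damaged mitochondria or start apoptosis, and it binds DNA as a tetramer at a pair of similar decamers. DNA-PKcs acts in the joining of broken DNA ends and is one of the kinases that can phosphorylate p53. Most of the 5 genes also answer to other factors. GDF15 is a secreted stress cytokine of the TGF-beta superfamily that is induced by the integrated stress response as well. TP53INP1 is a stress protein that promotes p53 activity and autophagy, and SESN1 is a sestrin that restrains the mTORC1 kinase through the GATOR complexes. BAX forms pores in the outer mitochondrial membrane during apoptosis. SPATA18, also called MIEAP, acts in the quality control of mitochondria.

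Promoter sequences were compared because the 5 genes share a regulator and moved apart. The RefSeq table for GRCh38.p14 held start sites of 4 of them, GDF15, SESN1, BAX and SPATA18, with 3 start sites for SESN1. The 150 bases before a start site follow 5' to 3', with the SESN1 site that holds a p53 decamer, and capitals mark the motifs found.
GDF15 promoter, chr19:18386008-18386157 (+ strand): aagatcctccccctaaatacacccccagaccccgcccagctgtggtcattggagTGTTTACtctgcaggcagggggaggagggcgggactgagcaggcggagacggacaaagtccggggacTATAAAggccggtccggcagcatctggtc
SESN1 promoter, chr6:109008989-109009138 (- strand): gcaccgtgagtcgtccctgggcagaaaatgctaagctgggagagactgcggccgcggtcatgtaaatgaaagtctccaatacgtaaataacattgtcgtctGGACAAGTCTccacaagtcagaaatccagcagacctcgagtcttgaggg
BAX promoter, chr19:48954725-48954874 (+ strand): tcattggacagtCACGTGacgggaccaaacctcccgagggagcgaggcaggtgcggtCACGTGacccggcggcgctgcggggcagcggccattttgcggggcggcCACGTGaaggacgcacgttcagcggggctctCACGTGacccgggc
SPATA18 promoter, chr4:52051154-52051303 (+ strand): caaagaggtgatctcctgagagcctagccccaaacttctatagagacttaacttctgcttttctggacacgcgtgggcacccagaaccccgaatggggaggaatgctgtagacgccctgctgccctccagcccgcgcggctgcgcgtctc

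Windows from 250 bases before to 50 after each start were searched for 6 motifs on both strands: the p53 decamer consensus, the FOXO element GTAAACA, the C/EBP-ATF element TGATGNAAN, the E-box CACGTG, the CHR element TTTGAA and the TATA box TATAAA. The decamer and the E-box read the same on both strands, and none of the matches in these windows overlapped another. The SESN1 window held 1 decamer at position -49, counted from the start site, and 6.63% of 35116 promoter windows held one. The decamer and the next 10 bases, ggacaagtctccacaagtca, differed from the p53 consensus of 20 bases at 3 positions. The GDF15 window had a stretch with 3 mismatches as well, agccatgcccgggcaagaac at position 29 within the transcript, and 5.2% of windows had one with at most 3. The closest stretch had 4 mismatches in the BAX window and 5 in that of SPATA18, and also 5 in each of the other SESN1 windows. Only adjoining decamers without a spacer were sought, and the shares of windows at 4 or 5 mismatches were not counted. The GDF15 window also held a TATA box at -29 (11.5% of windows) and a FOXO element, on the minus strand, at -96 (3.42%). The BAX window held 4 E-boxes, at -138, -93, -45 and -14, whereas 7.26% of windows held any and 5 of 35116 held at least 4. The SPATA18 window matched none of the 6 motifs. These are matches of letters in a short window and show no binding.

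GDF15 was the gene of the 5 that was clearly higher under both treatments. Its deposited intensity, a linear value with a floor at 16, was 270 and 271 in controls, 587 and 602 with NU7441, and 583 and 543 after knockdown. All 4 treated arrays lay above both controls, and the treated groups lay close together. The log2 fold change was 1.14 ± 0.11 (moderated SE, n = 2 per group) with NU7441, or 2.20-fold, and 1.06 ± 0.11 after knockdown, or 2.08-fold. Counted from the highest fold change of all genes, GDF15 ranked 130 with NU7441 and 13 after knockdown. The knockdown minus NU7441 difference was -0.08 ± 0.11 in log2, with the knockdown arrays just below the NU7441 arrays.

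TP53INP1 was higher mainly with NU7441. It stood at 259 and 226 in controls, 938 and 866 with NU7441, and 285 and 322 after knockdown. The NU7441 arrays were far above the other 4, and the knockdown arrays were slightly above the controls. The log2 fold change was 1.90 ± 0.13 with NU7441, 3.72-fold and rank 4 of all genes, and 0.32 ± 0.13 after knockdown, 1.25-fold and rank 1829. Knockdown was lower than NU7441 by -1.57 ± 0.13 in log2.

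SESN1 had the same order at a lower intensity. Its values were 111 and 103 in controls, 260 and 252 with NU7441, and 125 and 138 after knockdown. The groups did not overlap, with the knockdown arrays between the controls and the NU7441 arrays but near the controls. The log2 fold change was 1.26 ± 0.17 with NU7441 (2.40-fold, rank 62) and 0.30 ± 0.17 after knockdown (1.23-fold, rank 2071), a difference between the treatments of -0.96 ± 0.17.

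BAX was lower with NU7441. Its intensity was 40.7 and 41.0 in controls, 16 and 23.7 with NU7441, and 29.8 and 39.3 after knockdown. The first NU7441 array was within 0.01 of the floor of 16, and the second knockdown array came close to the controls. The log2 fold change was -1.07 ± 0.26 with NU7441, 2.10-fold lower, and -0.26 ± 0.26 after knockdown, 1.20-fold lower. Because 1 of the 2 NU7441 values sits at the floor, the size of the NU7441 difference is set in part by that floor. The platform annotation ties this probeset to a non-coding RefSeq transcript of BAX and those of the other 4 genes to protein-coding transcripts, so the value need not follow the mRNA that encodes the protein.

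SPATA18 was lower with both treatments. Its intensity was 67.3 and 58.5 in controls, 20.5 and 29.6 with NU7441, and 46.8 and 41.1 after knockdown. The NU7441 arrays were lowest and the knockdown arrays lay between them and the controls. The log2 fold change was -1.35 ± 0.26 with NU7441, 2.55-fold lower, and -0.52 ± 0.26 after knockdown, 1.43-fold lower. Counted from the lowest fold change of all genes, SPATA18 ranked 583 with NU7441.

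**Figure D1:**
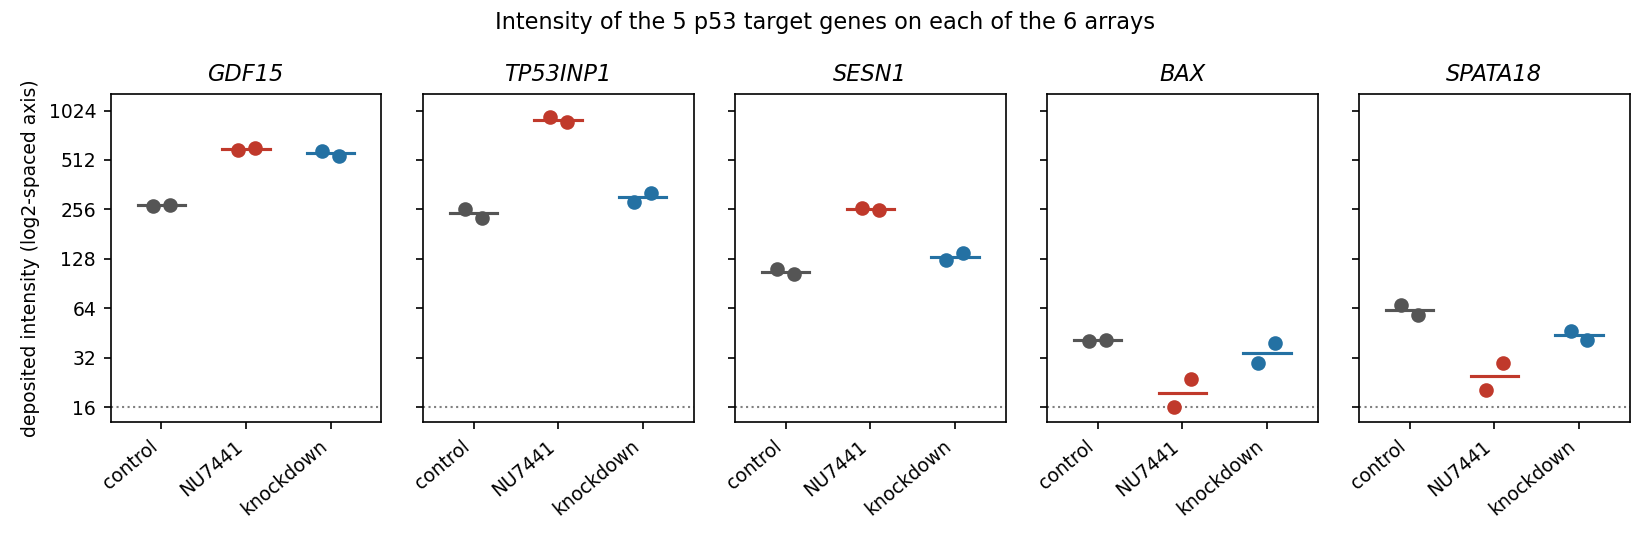
Deposited intensity of each gene on the 6 arrays, on a log2-spaced axis, with a point per array, a bar at the group's mean of log2 values and a dotted line at the floor of 16. GDF15 is high in both treated groups, TP53INP1 and SESN1 mainly with NU7441, and BAX and SPATA18 are lowest with NU7441, where 1 BAX value lies on the floor.

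Both arrays of each treated group lay on 1 side of both controls for all 5 genes. Such separation was common: 69.9% of all genes showed it with NU7441, 22.7% higher and 47.3% lower, and 61.7% showed it after knockdown, 23.4% higher and 38.2% lower. The comparisons against control share the control arrays, so the side on which the genes lay after knockdown does not stand apart from that with NU7441. Knockdown set directly against NU7441 put GDF15, TP53INP1 and SESN1 lower and BAX and SPATA18 higher, the last 2 by 0.81 ± 0.26 and 0.83 ± 0.26 in log2. The arrays of these groups did not overlap for any of the 5, nor for 52.4% of all genes, 32.9% higher and 19.6% lower after knockdown. This direct comparison reuses the NU7441 values on which the 5 genes were selected, so its directions do not stand apart from that selection. In bulk RNA, fewer cells with a transcript and less of it per cell cannot be told apart.

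The genes that were higher were brighter in controls than those that were lower, and the log2 fold change of all genes moved with brightness. The control level of GDF15 exceeded that of 91.3% of tested genes, of TP53INP1 90.05% and of SESN1 75.7%, against 62.8% for SPATA18 and 47.5% for BAX. With NU7441 the median log2 fold change was 0.21 over the 1338 genes with a mean log2 intensity above 8, where GDF15 and TP53INP1 lie, and 0.16 over the 1664 genes from 7 to 8, where SESN1 lies. It was -0.30 over the 3435 genes from 5 to 6, where SPATA18 lies, and -0.29 over the 6172 genes from 4 to 5, where BAX lies. A log2 fold change above 1 was found for 3.51% of genes above 8 and 6.13% from 7 to 8, and one below -1 for 14.03% of genes from 5 to 6 and 2.87% from 4 to 5. All 5 genes lay on the same side of 0 as the median of genes of their brightness. That they lay farther from 0 was fixed by their selection on these fold changes. The brightness ranges also rest on the mean over all 6 arrays, treated ones included. The part of brightness in their changes was not tested. The shares of all genes set beside the gene lists below were not matched for brightness. After quantile normalization or median centring of the arrays each of the 5 genes kept its sign in both comparisons with control. Over all settings and left-out arrays, the NU7441 log2 fold change ranged from 1.80 to 2.21 for TP53INP1, from 1.21 to 1.58 for SESN1 and from 1.11 to 1.45 for GDF15. It ranged from -2.41 to -1.03 for SPATA18 and from -3.13 to -0.75 for BAX, for both lowest when the floor was taken off as an offset and nearest 0 with median centring. After knockdown it ranged from -0.46 to -0.06 for BAX.

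**Figure D2:**
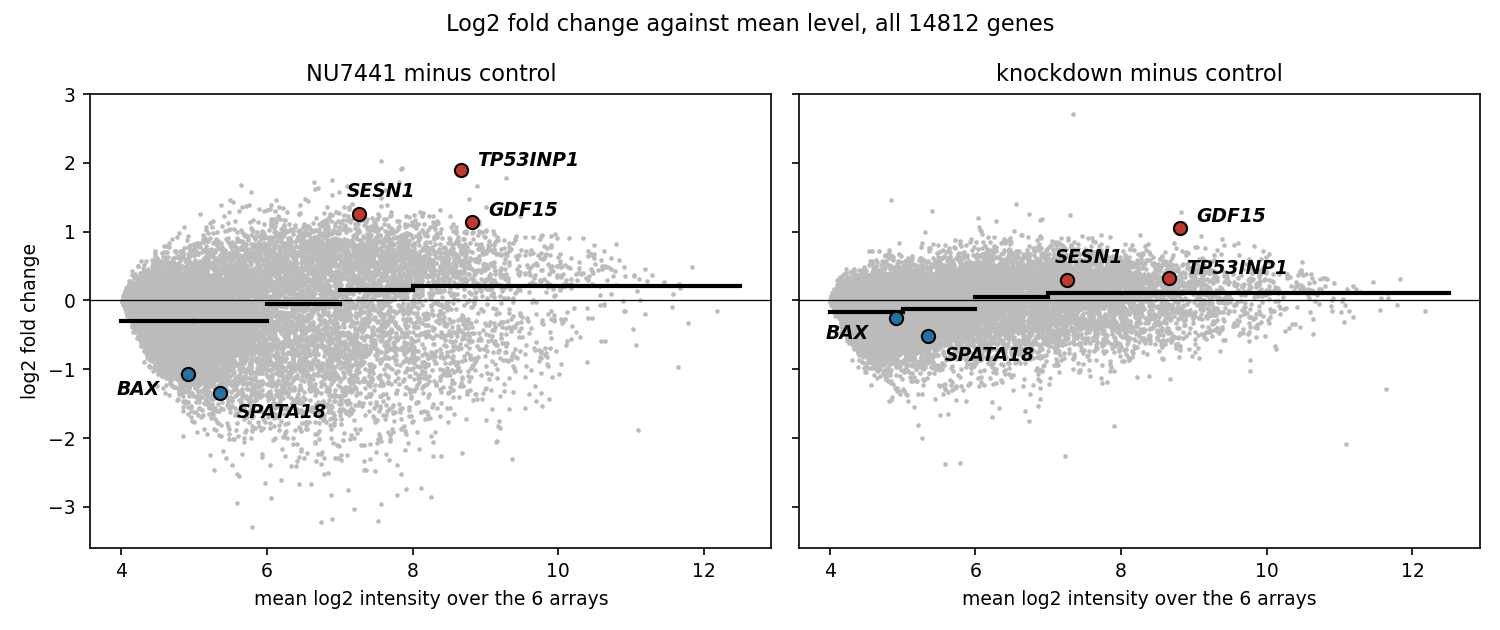
Log2 fold change of all 14812 genes (grey points) against mean log2 intensity over the 6 arrays, for NU7441 and for knockdown, with black bars at the median of each brightness range. GDF15, TP53INP1 and SESN1 (red) lie above the bars with NU7441 and BAX and SPATA18 (blue) below, as fixed by their selection on these fold changes. After knockdown only GDF15 of the 5 lies more than 1 log2 unit from 0.

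The close relatives of these genes were mixed. Among sestrins, SESN3 rose with NU7441, from 195 and 167 to 326 and 323, with a log2 fold change of 0.85 ± 0.15 (limma with Benjamini-Hochberg adjustment over all genes, adjusted p = 0.0046). Both NU7441 arrays were well above the other 4, since knockdown gave 218 and 208. SESN2, a sestrin induced by nutrient and endoplasmic reticulum stress, read 29.3 and 26.9 in controls and 49.0 and 25.3 with NU7441, so its arrays overlapped (0.33 ± 0.32, adjusted p = 0.444). TP53INP2, the relative of TP53INP1 that acts in autophagy, was -0.19 ± 0.16 with overlapping arrays (adjusted p = 0.365), and its sign turned with median centring.

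BAK1 and BOK, the pore-forming relatives of BAX, differed from each other. BAK1 read 58.1 and 63.4 in controls, 35.4 and 39.8 with NU7441 and 74.5 and 73.9 after knockdown, and it fell with NU7441 (-0.69 ± 0.23, adjusted p = 0.0421). That call did not hold after quantile normalization or median centring. BOK read 54.3 and 50.4 in controls, 96.2 and 89.3 with NU7441 and 30.4 and 46.6 after knockdown, and it rose with NU7441 (0.83 ± 0.26, adjusted p = 0.0391). Knockdown against NU7441 passed for both, upward for BAK1 (0.98 ± 0.23, adjusted p = 0.0318) and downward for BOK (-1.30 ± 0.26, adjusted p = 0.0207). Of the survival proteins, MCL1 rose with NU7441 (0.69 ± 0.14, adjusted p = 0.008), while BCL2L1 was at 0.48 ± 0.17 (adjusted p = 0.0559) and BCL2 at -0.52 ± 0.31 (adjusted p = 0.215).
The calls of SESN3, BAK1, BOK and MCL1 with NU7441 were lost without control replicate 2, with adjusted p of 0.0706, 0.292, 0.242 and 0.0888 at most over the fits that left out 1 control array. Those of BAK1, BOK and MCL1 were also lost without control replicate 1. The BAK1 and BOK calls of knockdown against NU7441 were lost without either knockdown array, with adjusted p up to 0.193 and 0.179, and without either control array.

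**Figure D3:**
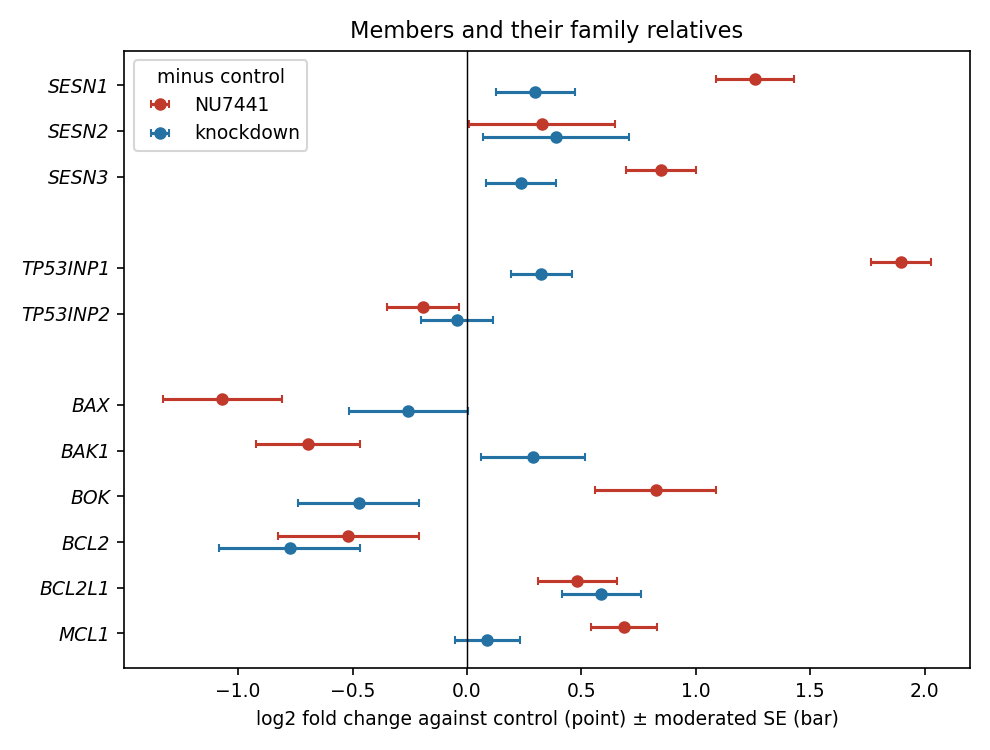
Log2 fold change against control with its moderated standard error (bars, n = 2 per group) for SESN1, TP53INP1, BAX and their relatives, with NU7441 in red and knockdown in blue. SESN3 follows SESN1 upward with NU7441, TP53INP2 stays near 0, and BAK1 and BOK lie on opposite sides of 0.

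The wider BCL2 family, without BAX, had 20 measured genes, of which 6 rose and 4 fell with NU7441, where 33.2% of all genes passed, 10.8% higher and 22.4% lower. BNIP3L, a mitophagy receptor, rose from 399 and 419 to 822 and 836 (1.02 ± 0.13, adjusted p = 0.0011), and BAD, a sensitiser to apoptosis, rose by 0.88 ± 0.21 (adjusted p = 0.013). BMF and BBC3, both BH3-only death genes, fell (-0.98 ± 0.25, adjusted p = 0.0177, and -0.70 ± 0.22, adjusted p = 0.038). The BMF call did not hold with the mean of all its probesets in place of the brightest. Its log2 fold change ranged from -1.58 to -0.28 over the 14 other fits. After quantile normalization 7 of the family passed upward and 0 downward, where all genes gave 2117 and 2037. After median centring the family gave 9 and 0, where all genes gave 2983 and 1413. The fallen members thus depended on the scaling, as did the split over all genes. Without control replicate 1 only 1 rose and 0 fell, and without control replicate 2 it was 2 and 0. The BNIP3L call held in all of these fits.

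SESN1 acts upstream of GATOR2, and the list of other sestrins, TP53INP2, GATOR subunits and mTORC1 regulators had 15 measured genes, of which 6 rose and 0 fell with NU7441, where 10.8% of all genes rose and 22.4% fell. Its median log2 fold change was 0.52, against -0.23 over all genes. WDR59, a GATOR2 subunit, rose from 77.7 and 84.5 to 247 and 157 (1.28 ± 0.24, adjusted p = 0.00511). TSC1, which holds mTORC1 off together with TSC2, rose by 1.06 ± 0.19 (adjusted p = 0.00464). NPRL2, a GATOR1 subunit, rose by 0.71 ± 0.14 (adjusted p = 0.00653) and KICS2, a subunit that anchors GATOR1, by 0.79 ± 0.22 (adjusted p = 0.0255). At an unadjusted p under 0.05, 8 of the list passed, with no share of all genes counted at that threshold. After quantile normalization, with which all genes gave 2117 higher and 2037 lower, 7 of the list passed upward. Leaving out control replicate 1 left 2 genes passing and leaving out control replicate 2 left 0, whereas without NU7441 replicate 2 there were 9 higher and 2 lower.

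The rest of the p53 programme did not follow 1 direction. Of 142 other textbook p53 targets in 6 lists, 82 were measured, and with NU7441 9 rose and 18 fell. That is 10.98% and 21.95%, against 10.8% and 22.4% of all genes, so the share that passed was close to the background. The median log2 fold change of the 82 was -0.09 and that of all genes -0.23. The split between directions depended on the scaling, with 17 higher and 13 lower after quantile normalization and 25 and 10 after median centring, where all genes gave 2117 and 2037, and 2983 and 1413. The count was 2 higher and 5 lower without control replicate 1, 1 and 4 without control replicate 2, and 20 and 28 without NU7441 replicate 2.

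By role, the 16 measured targets in metabolism, redox control and autophagy had 5 higher and 3 lower. These were 31.25% and 18.75%, against 10.8% and 22.4% of all genes. LPIN1, a phosphatidate phosphatase and coactivator, rose from 96.6 and 93.5 to 210 and 212 (1.15 ± 0.19, adjusted p = 0.00301), and ABHD4, a lipase, rose by 0.91 ± 0.23 (adjusted p = 0.0176). ULK1, a kinase that starts autophagy, fell from 104 and 92.5 to 38.0 and 44.1 (-1.26 ± 0.23, adjusted p = 0.00481), and CPT1C fell by -0.84 ± 0.23 (adjusted p = 0.022). Among 5 measured feedback regulators, CCNG1, cyclin G1, rose from 459 and 433 to 884 and 757 (0.88 ± 0.11, adjusted p = 0.00126). FBXO22, a ubiquitin ligase subunit, fell (-0.81 ± 0.15, adjusted p = 0.00515).

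The 13 measured cell death targets, to which BAX belongs by role, had 1 higher and 1 lower. Each was 7.69% of the list, against 10.8% higher and 22.4% lower of all genes. TP53I3, an oxidoreductase, rose from 44.1 and 34.2 to 62.6 and 68.5 (0.75 ± 0.24, adjusted p = 0.0396), and BBC3, given above, was the one that fell. Neither call held without control replicate 1 or control replicate 2, and BBC3 did not pass after quantile normalization. Of 6 arrest genes, GTSE1, a p53 antagonist of dividing cells, fell (-1.28 ± 0.18, adjusted p = 0.00188), and of 5 repair genes, PCNA, the replication clamp, fell from 764 and 771 to 403 and 442 (-0.86 ± 0.10, adjusted p = 0.00094).

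GDF15 is secreted, and the 37 measured secreted, adhesion and other targets had 2 higher and 11 lower. These were 5.4% and 29.7%, against 10.8% and 22.4% of all genes. NADSYN1, an enzyme of NAD synthesis, and TCAIM, a mitochondrial protein, rose (1.14 ± 0.24, adjusted p = 0.00846, and 0.71 ± 0.16, adjusted p = 0.00958). CX3CL1, a chemokine, fell from 306 and 322 to 88.7 and 36.3 (-2.47 ± 0.34, adjusted p = 0.00154), and E2F7, a repressor of cell cycle genes, fell by -1.44 ± 0.26 (adjusted p = 0.00432). Of these named targets, the calls of CCNG1, GTSE1, PCNA and CX3CL1 held in all 14 other fits. Those of ABHD4, ULK1, CPT1C, NADSYN1, TCAIM and E2F7 were lost without either control array, with adjusted p up to 0.172, 0.0871, 0.151, 0.127, 0.0988 and 0.0644. Those of LPIN1 and FBXO22 were lost without control replicate 2, at 0.0506 and 0.0705. The CPT1C call was also lost after quantile normalization, median centring and subtraction of the floor.

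After knockdown, 0 of the 82 targets passed (limma). Of all genes 0.77% passed, 114 in all, 0.284% higher and 0.486% lower. At an unadjusted p under 0.05 there were 15 targets, and the share of all genes at that threshold was not counted. The fit shares its spread with the variable NU7441 arrays. When control and knockdown were fitted alone, 17 of the 82 targets passed, 5 higher and 12 lower. Of all 14812 genes 2843 passed in that fit, 1021 higher and 1822 lower. Knockdown against NU7441 put 6 targets higher and 4 lower, 12.2% of the 82 against 8.67% of all genes (5.83% higher and 2.84% lower). CX3CL1 was higher after knockdown than with NU7441 by 2.07 ± 0.34 (adjusted p = 0.00977) and CCNG1 lower by -0.65 ± 0.11 (adjusted p = 0.0115). Without knockdown replicate 1 or knockdown replicate 2, 0 targets passed in this comparison.

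**Figure D4:**
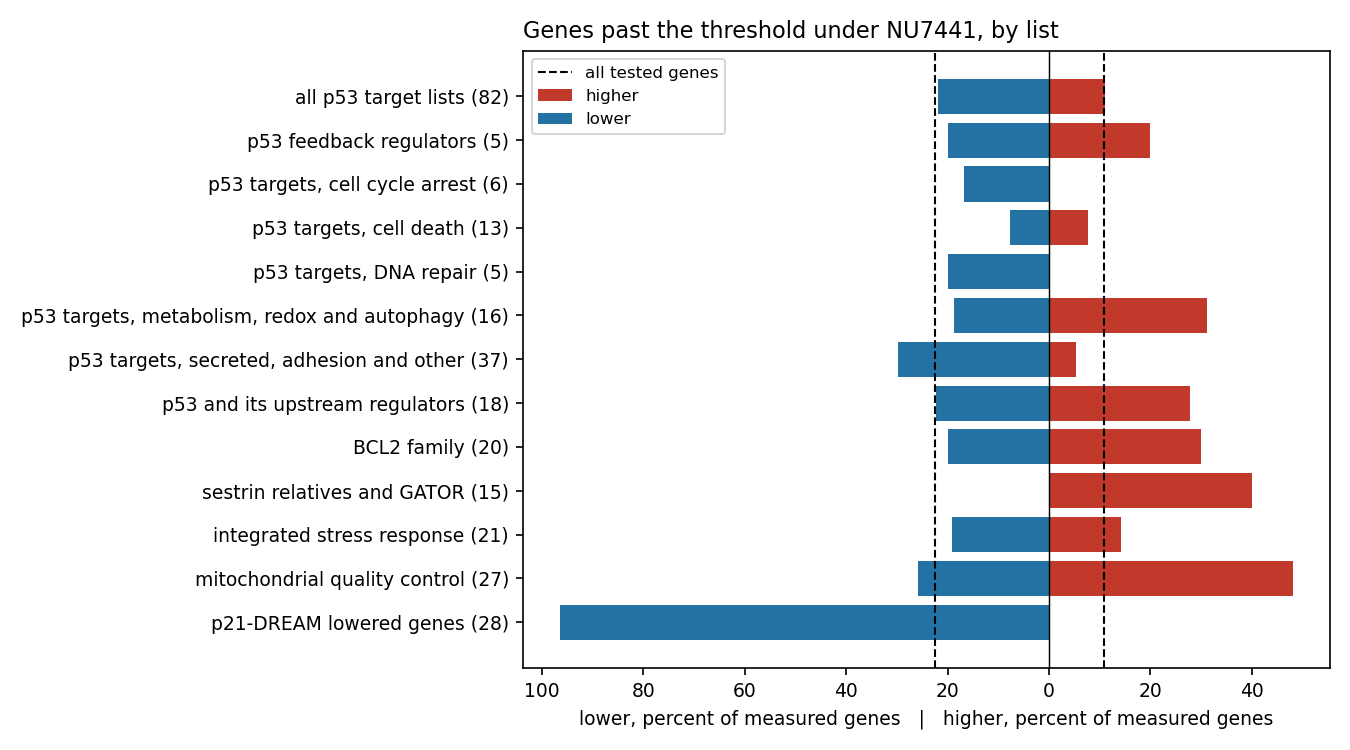
Share of each list's measured genes (number in brackets) that passed the test with NU7441 against control, higher to the right and lower to the left, with dashed lines at the shares of all genes, 10.8% higher and 22.4% lower. The p53 targets as a whole sit at the dashed lines, and the genes lowered through p21 and DREAM lie far to the left with 27 of 28. The bar for the integrated stress response also holds other genes linked to GDF15.

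Among 18 measured regulators of p53, 5 rose and 4 fell with NU7441. These were 27.8% and 22.2%, against 10.8% and 22.4% of all genes, not matched for brightness. EP300, an acetyltransferase and coactivator of p53, rose from 341 and 337 to 544 and 572 (0.72 ± 0.12, adjusted p = 0.00372), and its relative CREBBP rose by 0.71 ± 0.19 (adjusted p = 0.0207). BRD7, a bromodomain cofactor that p53 needs at some targets, fell from 584 and 562 to 142 and 159 with NU7441 (-1.94 ± 0.15, adjusted p = 0.00022). It also fell to 161 and 162 after knockdown (-1.83 ± 0.15, adjusted p = 0.00183), and all 4 treated arrays lay far below both controls. CHEK1, the checkpoint kinase, fell with NU7441 (-1.72 ± 0.16, adjusted p = 0.000422) and was at -0.73 ± 0.16 after knockdown (adjusted p = 0.0701). The knockdown call of BRD7 was lost without any 1 of the control or knockdown arrays, with adjusted p up to 0.275. Of the 5 regulators that rose with NU7441, only EP300 kept its call in all 14 other fits. The calls of CREBBP, MDM4, HIPK2 and SIRT1 were lost without either control array. Those of MDM4, HIPK2 and SIRT1 were also lost with the compared groups alone and without either knockdown array.

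Genes that p53 lowers indirectly, through p21 and the DREAM repressor complex, gave the most uniform list. With NU7441 27 of 28 measured members fell and 0 rose, with a median log2 fold change of -1.60. The lowest were NEK2 (-2.29 ± 0.29, adjusted p = 0.00121) and AURKB (-2.24 ± 0.19, adjusted p = 0.000339), both mitotic kinases. The smallest falls among those that passed were CKS2, a CDK subunit (-0.95 ± 0.09, adjusted p = 0.000409), and CDK1 (-1.01 ± 0.13, adjusted p = 0.00121). CKS1B, named after its value was seen as the exception, was at -0.24 ± 0.11 (adjusted p = 0.118). After knockdown 0 of the 28 passed in limma, in the fit that shares its spread with the NU7441 arrays. Their median was -0.33, against -0.09 over all genes, and 26 of the 28 had a log2 fold change below 0. At an unadjusted p under 0.05 there were 10, and the share of all genes at that threshold was not counted. Knockdown lay above NU7441 in log2 fold change for all 28, and 25 passed that test upward, against 5.83% of all genes. Without knockdown replicate 1 or knockdown replicate 2, 0 of the 28 passed it. These genes follow the number of dividing cells as well as p53, and the share of dividing cells was not measured.

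Genes of the integrated stress response, an alternative inducer of GDF15, were listed together with other genes linked to GDF15. That list passed at about the background rate. Of 21 measured, 3 rose and 4 fell with NU7441, 14.3% and 19.05% against 10.8% and 22.4% of all genes. DDIT3, which encodes the factor CHOP, rose from 49.7 and 51.6 to 114 and 88.2 (0.99 ± 0.25, adjusted p = 0.0168), and EIF2AK1, the HRI kinase, rose by 0.83 ± 0.12 (adjusted p = 0.00164). PSAT1, of serine synthesis, fell to 114 and 407 from 591 and 496, with wide spread between the NU7441 arrays (-1.33 ± 0.45, adjusted p = 0.0469). EIF2AK2, the PKR kinase, fell (-1.12 ± 0.21, adjusted p = 0.00563). ATF4 and TRIB3 also fell with NU7441 (limma, -0.39 ± 0.10, adjusted p = 0.0183, and -0.58 ± 0.16, adjusted p = 0.0235). ATF4 read 968 and 970 in controls, 719 and 757 with NU7441 and 753 and 645 after knockdown. Both calls were lost with median centring and without either control array, and that of ATF4 also without the mean-variance trend. ASNS, asparagine synthetase, read 698 and 604 in controls, 1013 and 1054 with NU7441 and 1143 and 1106 after knockdown. Its treated arrays lay above both controls, as did those of 22.7% of all genes with NU7441 and 23.4% after knockdown. It rose with NU7441 (0.67 ± 0.10, adjusted p = 0.00183) and after knockdown (0.79 ± 0.10, adjusted p = 0.0178). The knockdown call was lost without any 1 of the control or knockdown arrays, with adjusted p up to 0.399. The calls of DDIT3, PSAT1 and EIF2AK2 were lost without either control array, with adjusted p up to 0.132, 0.201 and 0.091, and that of PSAT1, also lost without either knockdown array, held in 5 of 14 other fits.

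SPATA18 acts at mitochondria, and 13 of 27 measured genes of mitochondrial quality control rose with NU7441 and 7 fell. These were 48.1% and 25.9%, against 10.8% and 22.4% of all genes, not matched for brightness. OPTN, an autophagy receptor for damaged mitochondria, rose from 35.5 and 37.8 to 110 and 108 (1.57 ± 0.23, adjusted p = 0.00206). PINK1, the kinase that marks such mitochondria, rose from 61.4 and 59.6 to 153 and 105 (1.07 ± 0.26, adjusted p = 0.0141). VDAC2 and VDAC3, channels of the outer membrane, fell (-1.71 ± 0.42, adjusted p = 0.0144, and -1.08 ± 0.15, adjusted p = 0.0015). Median centring, with which all genes gave 2983 higher and 1413 lower, gave 15 higher and 2 lower for this list. Without control replicate 1 or control replicate 2 it was 6 higher and 1 lower. The OPTN and VDAC3 calls held in these fits and those of PINK1 and VDAC2 were lost, with adjusted p up to 0.117 and 0.0932. After knockdown limma called 0 of these 27 genes, 0 of the 20 in the BCL2 family and 0 of the 15 in the sestrin and GATOR list. In that order 7, 5 and 3 had an unadjusted p under 0.05, with no share of all genes counted at that threshold.

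By pattern over the 6 arrays, the genes nearest to each of the 5 were sought among 6722 candidates brighter than the median gene, by Euclidean distance in log2 after centring on the control mean. Nearest to GDF15 were DAZAP2 (distance 0.34), FOXD4L6 (0.37) and RNF181 (0.38). Nearest to TP53INP1 were SYCE3 (0.33), GRB10 (0.39) and RDH11 (0.40). SESN1 had the closest neighbours of the 5, APP (0.12), VPS13C (0.13) and MRNIP (0.18). APP read 536 and 473 in controls, 1154 and 1208 with NU7441 and 590 and 628 after knockdown. Nearest to BAX were RBL1 (0.23), IDI2 (0.23) and TOMM40 (0.23), and nearest to SPATA18 were FOXM1 (0.18), CEP120 (0.22) and SPOPL (0.23). FOXM1 read 217 and 194 in controls, 70.2 and 106 with NU7441 and 153 and 125 after knockdown. FOXD4L6 has near-identical copies that its probes may not tell apart.

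Across the series the arrays differed at the dim end: the median intensity was 31.5 to 31.6 in controls, 24.6 to 26.0 with NU7441 and 27.6 to 28.4 after knockdown, with the 95th percentile between 289.5 and 298.9 throughout. From 444 to 452 probesets lay within 0.01 of the floor in controls, 3797 and 1471 with NU7441, and 973 and 1206 after knockdown. The gene-wise SD within a group had a median of 0.09 in log2 in controls, 0.21 with NU7441 and 0.14 after knockdown. Luminal prostate markers were present. Their summed intensity over 8 genes was 3321 to 3441 in controls, 4234 to 4594 with NU7441 and 3283 to 3312 after knockdown. With NU7441 5 of the 8 had a log2 fold change above 0, and 3, KLK2, KRT18 and SPDEF, had one below 0. KLK3 and KLK4 were the 2 that passed in limma, both higher. The 6 neuroendocrine markers summed to 796 to 877.8 in controls, 199.4 to 221.4 with NU7441 and 559.7 to 654.8 after knockdown. SOX2 carried most of that sum, at 697 and 633 in controls, 111 and 75.3 with NU7441 and 499 and 435 after knockdown, and the other 5 summed to 163.3 to 180.3, 110.1 to 124.1 and 125 to 156.1. The 3 leukocyte, 2 stromal, 3 endothelial and 4 basal markers measured had no single intensity above 159.6. The part of these shifts in the changes of the 5 genes was not tested.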

How the data were processed

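The values the authors deposited are linear intensities, 1 per probeset and array, and the labels' protocols give Trizol extraction, whole-transcriptome amplification and biotin labelling. How they were summarised and normalized, and the build, are not stated in the labels or files used here. log2 of the deposited intensity was taken without further scaling. Of 44629 probesets 15835 had 1 symbol in the platform annotation, 0 had several and 28794 were unnamed here and left out. The brightest probeset stood for each gene, giving 14812 genes, with no filter on dim ones. limma 3.58.1 in R 4.3.3 fitted all 6 arrays together (3 residual degrees of freedom, empirical Bayes with a mean-variance trend), with Benjamini-Hochberg adjustment over all genes, two-sided, and a threshold of 0.05. Values after ± are moderated standard errors, n = 2 per group, and the number of arrays limits the precision.

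The 5 genes and all lists were chosen with earlier results of these data known. The genes named were, per list, the 2 highest and 2 lowest fold changes with NU7441 among those that passed, measured SESN, TP53INP and multi-domain BCL2 relatives, list genes that passed after knockdown, and the 3 genes of nearest pattern. Also named, after their values were seen, were MDM4, HIPK2, SIRT1, ATF4, TRIB3 and single cell type markers. The DREAM list is counted in full and described briefly. Replicate numbers were checked for pairing: same-numbered arrays had deviations that correlated at -0.01 for control and NU7441, -0.01 for control and knockdown and -0.07 for NU7441 and knockdown, so they were not treated as pairs. The fit was tested on simulated data. A first simulation, with each gene's raw variance, missed the preset recovery limit, and the limit was met only after the simulated variances were changed to the shrunken ones; recovery depended on that choice, and under the shrunken variances the share of false calls exceeded the nominal threshold. Motifs were sought in the RefSeq promoter table for GRCh38.p14.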

Additional observations from a re-analysis of the deposited data

How the results depend on the processing

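The 8 other settings were quantile normalization, median centring, subtraction of the floor as an offset (16, with 1 added back), no mean-variance trend, dim genes left out, a replicate block, the mean of all probesets and the compared groups alone; each of the 6 arrays was also left out in turn. None of these changed the sign of GDF15, TP53INP1, SESN1, BAX or SPATA18 against control. Their extension to single lists and named genes was chosen after seeing the data. With NU7441, 4917 genes passed, 868 to 7845 with 1 array left out, and 27 p53 targets, 5 to 48. The lowest counts came without control replicate 2 and the highest without NU7441 replicate 2. After knockdown 114 genes passed: 199 with quantile normalization, 423 with median centring, 7 after subtracting the floor, 4 without the trend, 188 without dim genes, 2843 with the compared groups alone and 1 (without knockdown replicate 2) to 2884 (without NU7441 replicate 1) with 1 array left out. Of p53 targets 0 passed: 1 with quantile normalization, median centring or without dim genes, 17 with the groups alone and 0 to 19 with 1 array left out. For knockdown against NU7441, 1284 genes and 10 p53 targets passed: 820 genes without the trend, 472 genes and 5 targets with the groups alone, and 0 (without knockdown replicate 2) to 5101 (without NU7441 replicate 2) genes and 0 to 31 targets with 1 array left out. The cause of these shifts was not tested. With the replicate block, which has no basis in a pairing, 4490, 37 and 1025 genes and 24, 0 and 7 p53 targets passed in the order of the comparisons above.

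The log2 fold change of TP53INP2 turned from -0.19 to 0.13 with median centring with NU7441, and from -0.04 to 0.13 after knockdown. With 1 array left out it ranged from -0.42 (without NU7441 replicate 2) to 0.037 (without NU7441 replicate 1) with NU7441, and reached 0.067 and 0.023 after knockdown, without control replicate 2 and without knockdown replicate 1. SESN2 with NU7441, at 0.33, ranged from -0.15 without NU7441 replicate 1 to 0.80 without NU7441 replicate 2. Signal near the floor limits BAX and SPATA18 most.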
